A study of Homo sapiens with 8 samples.

Results

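The p53 target genes described here are 28 genes that the tumour suppressor p53 is known to activate. They were chosen by name: 29 names were listed, and each row of the gene count table whose symbol was a listed name was taken. The name TRIM22-free matched no row, so 28 of the 61517 genes in the table are members. Of these 28, 24 passed the filter on low counts and were tested among 15554 genes.

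The RNA came from KYSE150 cells, a line grown from a human squamous carcinoma of the esophagus. Poly(A)-selected mRNA was sequenced from 8 libraries, made in pairs from cells kept in hypoxia with oxamate and NALA, in hypoxia with oxamate, in hypoxia alone, or in normoxia. Sodium oxamate inhibits lactate dehydrogenase, and NALA was read as sodium lactate because the treatment protocol of the labels names that salt. No genetic change is stated for any group, and how much was given, for how long and at what oxygen level is not stated in the labels. Whether paired libraries stem from separate cultures is also not stated. The p-values therefore measure the spread between libraries alone, and that spread may be technical.

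In normal cells p53 is kept low by MDM2, which tags it for degradation, and DNA damage or other stress frees p53 to bind DNA and raise its targets. The targets arrest the cell cycle, repair DNA, start apoptosis from the mitochondrion or the cell surface, and feed back on p53 itself. In squamous epithelium the related factor p63 is abundant and binds many of the same DNA elements. Levels are given below as CPM, counts scaled to a common library size with TMM (trimmed mean of M-values) factors. Differences are fitted log2 fold changes ± standard error from edgeR's quasi-likelihood test, and a gene passed at a Benjamini-Hochberg adjusted p under 0.05 over all tested genes.

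Promoter sequences are shown first because the members were chosen as targets of one DNA-binding factor and could share its element. RefSeq windows from 250 bases before to 50 bases after a transcript start were searched for 22 members in 35 windows on GRCh38.p14. No window of TNFRSF10A, TNFRSF10B, TNFRSF10C, TP53INP1, RRM2B or PHLDA3 was searched. Whether their promoters hold the elements described here was therefore not tested. The p53 half-site, the ten-letter element of which p53 binds a pair, was found in 6 of those 35 windows, each of a different member, and in 6.63% of the 35116 windows of all genes. Its consensus is its own reverse complement, so a match holds for both strands. Only exact matches to that consensus were counted. An element with a mismatched letter or outside a window would be missed, so members without a match may still hold a p53 element. In the next lines the half-site is in capitals, for DDB2 a pair of half-sites with the base between them, and each line is the strand of the gene from 5′ to 3′.
AEN: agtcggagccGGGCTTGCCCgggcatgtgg
DDB2: gtttGAACAAGCCCTGGGCATGTTTggcg
FAS: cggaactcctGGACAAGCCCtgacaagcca
FDXR: gggcaggagcGGGCTTGCCCtgcggagcag
PLK2: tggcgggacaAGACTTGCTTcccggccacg
BLCAP: tgggagaggaAGACAAGTCCgaggccgagc

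These stretches lie at chr15:88621296-88621325 on the plus strand for AEN, chr11:47214975-47215003 on the plus strand for DDB2 and chr10:88991299-88991328 on the plus strand for FAS. Those of FDXR, PLK2 and BLCAP lie on the minus strand at chr17:74872986-74873015, chr5:58460199-58460228 and chr20:37524427-37524456. DDB2 carried a pair of exactly matching half-sites with 1 base between them, a pairing at 0 to 1 base found in 7 of all 35116 windows. Pairs with a mismatched letter were not searched for, so the other members may hold such pairs. The pair lies just after the transcript start, at positions 6 to 26. AEN and FDXR shared the same half-site letters, at positions -34 to -25 and -11 to -2. In GENCODE release 29 on GRCh38 the AEN gene spans chr15:88621296-88632282, BBC3 chr19:47220822-47232766, BAX chr19:48954815-48961798 and MDM2 chr12:68808176-68850686, all protein-coding. A match describes letters only, and p53 binding was not measured.

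The letters ACGTG, the core of the element bound by hypoxia-inducible factors, were searched on both strands and stood in 11 of the 35 member windows, which belong to 10 members, and in 21.4% of all windows. They are contained in CACGTG, the E-box bound by MYC and its relatives, so the searches overlap. BAX had them at 5 separate places, 4 of which read CACGTG. Only 5 of all 35116 windows held at least 4 copies of CACGTG. The 150 bases before its start, at chr19:48954725-48954874 on the plus strand, are printed with these letters in capitals, followed by those of AEN at chr15:88621190-88621339 on the plus strand with the half-site in capitals. BAX is shown for the repeated letters in its window, and AEN because its level had the widest span of the tested members with counts in every group.
BAX: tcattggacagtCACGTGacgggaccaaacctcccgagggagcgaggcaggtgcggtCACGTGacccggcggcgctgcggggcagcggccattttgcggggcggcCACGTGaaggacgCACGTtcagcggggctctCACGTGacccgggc
AEN: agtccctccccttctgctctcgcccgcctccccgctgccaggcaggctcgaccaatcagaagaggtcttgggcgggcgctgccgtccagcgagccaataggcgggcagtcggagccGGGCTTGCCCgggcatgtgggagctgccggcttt

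Facts of the libraries touch all members alike. Total counts ran from 21845676 to 29406061 per library. Mitochondrial genes took 2.09% to 2.14% of counts with oxamate and lactate, 2.44% to 2.45% with oxamate, 4.61% to 4.78% in hypoxia and 5.73% to 5.74% in normoxia, and the part of this share in the members' differences was not tested. Of 8 squamous epithelial markers, all had counts in 6 libraries, while SOX2 was at 0 in both libraries with oxamate and lactate. Their summed level was 2370 to 2380 CPM of the library totals with oxamate and lactate, 3350 to 3360 with oxamate, 1590 in both hypoxia libraries and 2270 to 2280 in normoxia. Most of that sum was KRT5, and the markers did not move together: in hypoxia against normoxia KRT5, KRT14, KRT6A and KRT13 fell, while TP63, PKP1 and DSG3 rose. KRT5 was at 973 and 970.3 CPM in hypoxia and 1678 and 1677 CPM in normoxia, and DSG3 at 98.9 and 102 CPM in hypoxia and 45.9 and 45.1 CPM in normoxia. Of 6 leukocyte markers, 3 to 5 had counts and the sum was 3.89 to 4.48 CPM with oxamate and lactate, 2.7 to 3.06 with oxamate, 7.28 to 7.54 in hypoxia and 2.57 to 3.75 in normoxia. PTPRC was at 0 in 7 libraries. Of 10 fibroblast and endothelial markers, 3 to 6 had counts and the sum was 1.33 to 1.51 CPM with oxamate and lactate, 1.36 to 2.31 with oxamate, 10.7 to 11.1 in hypoxia and 4.33 to 4.36 in normoxia. DCN, KDR and COL3A1 were at 0 everywhere. The part of these markers in the members' differences was not tested.

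The 24 tested members did not follow one pattern over the 4 groups. The mean level of 9 members was highest with oxamate and lactate, of 2 with oxamate, of 8 in hypoxia and of 5 in normoxia. Over all tested genes the shares with the highest mean in those groups were 21.5%, 22.5%, 32% and 23.9%. The 9 members highest with oxamate and lactate were AEN, BBC3, MDM2, PLK2, PLK3, PMAIP1, PPM1D, TNFRSF10A and TNFRSF10B. The lowest mean fell in the oxamate group for 11 members and in hypoxia for 9, while 4 were lowest with oxamate and lactate and 0 in normoxia. TP53INP1, among the 11, was tied at 0 counts with and without lactate, and the tie was given to the oxamate group. Over all tested genes the lowest mean fell in the oxamate group for 28.8%, in hypoxia for 27.1%, with oxamate and lactate for 24.1% and in normoxia for 20%. AEN spanned the widest range among members with counts in every group, with its highest group mean 27.5 times its lowest, followed by BBC3 at 13.3 times and PMAIP1 at 7.74 times. RRM2B and TRIAP1 varied least, at 1.31 and 1.35 times.

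**Figure D1:**
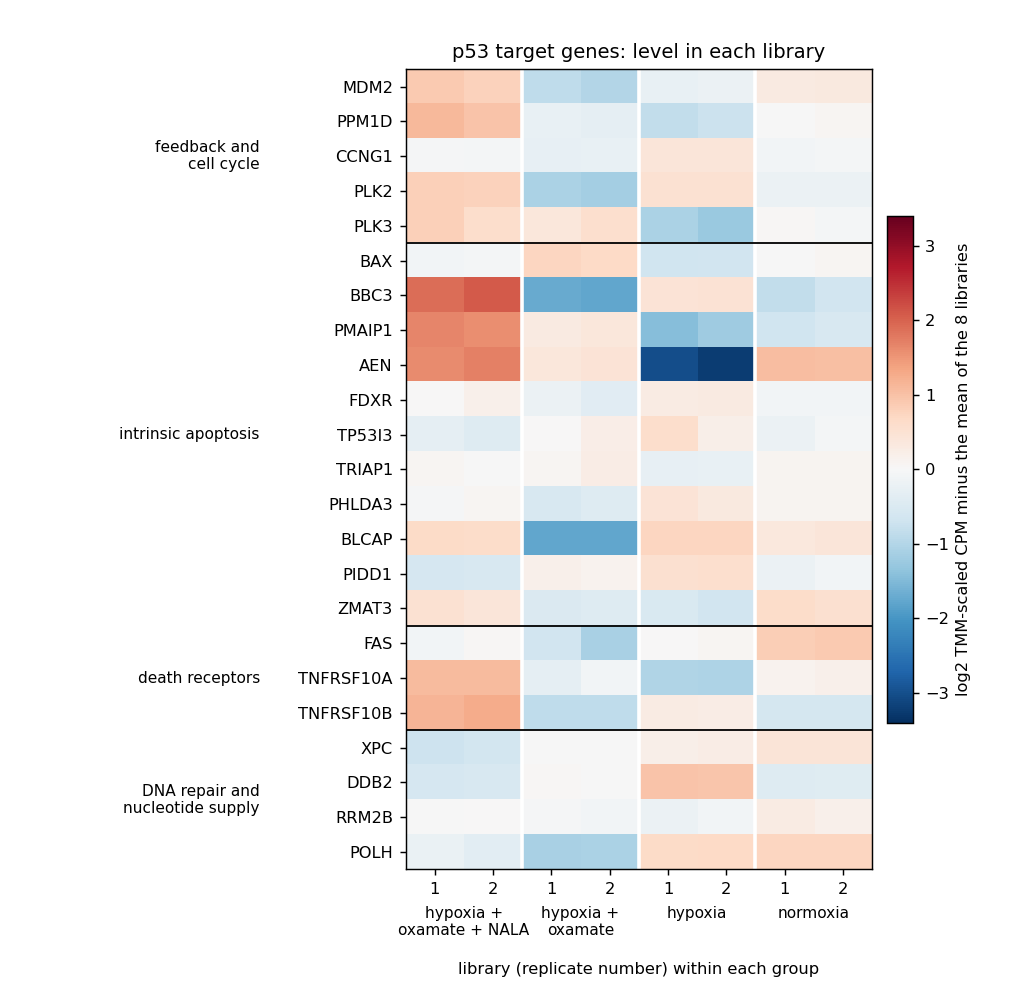
Level of 23 tested p53 target genes (rows, by role) in each of the 8 libraries (columns, by group), as log2 CPM minus the mean of the gene over the libraries. Red is above and blue below that mean, and AEN in hypoxia and BBC3 with oxamate and lactate stand out. TP53INP1, at 0 counts in 4 libraries, is left out.

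Hypoxia against normoxia asked how low oxygen alone changed the members. The p53 target genes split: 10 of the 24 tested members rose in hypoxia, 12 fell and 2 did not pass. At least 2-fold, 2 rose and 4 fell. Calls were common in this comparison. Over all tested genes 73.5% passed, 36.7% as higher and 36.8% as lower, and 28.7% passed at 2-fold or more, 15.6% as higher and 13.1% as lower. At 2-fold or more the 6 of 24 members lay near that background. The members' median log2 fold change was -0.15, against 0.02 for all tested genes. In such bulk samples, fewer cells with a transcript and less transcript per cell cannot be told apart.

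Of the feedback and cell cycle genes, MDM2, which encodes the ubiquitin ligase of p53, was at 69.5 and 72.2 CPM in hypoxia and 103 and 104 CPM in normoxia. Both hypoxia libraries were lower and MDM2 fell (-0.55 ± 0.048, adjusted p = 7.26e-10). PPM1D, encoding the WIP1 phosphatase that damps p53 signalling, fell as well (-0.80 ± 0.096), and so did PLK3, a stress-responsive polo-like kinase (-1.13 ± 0.16). PLK2, a related kinase, rose to 289 and 287 CPM in hypoxia, against 173 and 174 CPM in normoxia (0.73 ± 0.033). CCNG1, encoding cyclin G1, which brings a phosphatase to MDM2, also rose (0.48 ± 0.040).

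Among apoptosis genes AEN had the largest fall. AEN encodes a nuclease that degrades DNA and RNA in dying cells. It was at 2.85 and 2.43 CPM in hypoxia and 47.3 and 46.7 CPM in normoxia (-4.15 ± 0.093, adjusted p = 3.22e-20). The counts were 84 and 69 in hypoxia and 1271 and 1478 in normoxia, so the groups lay far apart. BBC3, encoding the BH3-only protein PUMA that unleashes BAX, went the other way, with 6.89 and 6.90 CPM in hypoxia and 2.79 and 3.16 CPM in normoxia (1.21 ± 0.14, adjusted p = 5.77e-08). PMAIP1, encoding the other BH3-only member NOXA, fell to 3.26 and 3.84 CPM in hypoxia, against 5.54 and 6.10 CPM in normoxia (-0.72 ± 0.13, adjusted p = 3.70e-05). BAX, the pore-forming effector of the mitochondrial pathway, fell to 34.6 and 35.1 CPM in hypoxia, against 55.2 and 58.4 CPM in normoxia (-0.70 ± 0.051). Thus the BH3-only genes moved in opposite directions, and the hypoxia and normoxia libraries did not overlap for either one.

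The remaining apoptosis members also moved both ways. ZMAT3, encoding an RNA-binding zinc finger protein, fell to 10.1 and 9.08 CPM in hypoxia, against 22.2 and 21.0 CPM in normoxia (-1.17 ± 0.087, adjusted p = 5.49e-11). TRIAP1, a small mitochondrial survival protein, fell too (-0.36 ± 0.084). PIDD1, the scaffold that activates caspase-2 (0.70 ± 0.060), the ferredoxin reductase gene FDXR (0.39 ± 0.071), the AKT inhibitor gene PHLDA3 (0.31 ± 0.063, adjusted p = 0.000143) and BLCAP, a growth-suppressing gene (0.35 ± 0.034), rose. TP53I3, encoding a quinone oxidoreductase, rose (0.56 ± 0.15), but without hypoxia replicate 1 the value was 0.35 and did not pass.

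The death receptor genes also divided. TNFRSF10B, encoding the TRAIL receptor DR5, rose to 123 and 122 CPM in hypoxia, against 67.4 and 67.6 CPM in normoxia (0.86 ± 0.041, adjusted p = 1.80e-14). TNFRSF10A, encoding the TRAIL receptor DR4, fell to 15.8 and 15.5 CPM in hypoxia, against 34.6 and 36.2 CPM in normoxia (-1.18 ± 0.072, adjusted p = 1.48e-12). FAS, the receptor of Fas ligand, was at 7.09 and 7.36 CPM in hypoxia and 12.7 and 13.1 CPM in normoxia and fell (-0.84 ± 0.12, adjusted p = 1.31e-06). Of the DNA repair members, DDB2, which recognises ultraviolet damage, had the largest rise of any member: 125 and 122 CPM in hypoxia and 47.2 and 47.4 CPM in normoxia (1.39 ± 0.043, adjusted p = 8.09e-18). XPC, its partner in damage recognition, fell (-0.22 ± 0.061), a call lost with upper quartile scaling (-0.12). RRM2B, the p53-induced ribonucleotide reductase subunit, fell (-0.38 ± 0.076). TP53INP1, a stress gene that promotes cell death and autophagy, had 12 and 12 counts in hypoxia and 2 and 10 in normoxia and did not pass (adjusted p = 0.187). POLH, a translesion polymerase, did not pass, at 12.4 and 12.5 CPM in hypoxia and 13.0 and 13.1 CPM in normoxia (-0.07 ± 0.095).

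**Figure D2:**
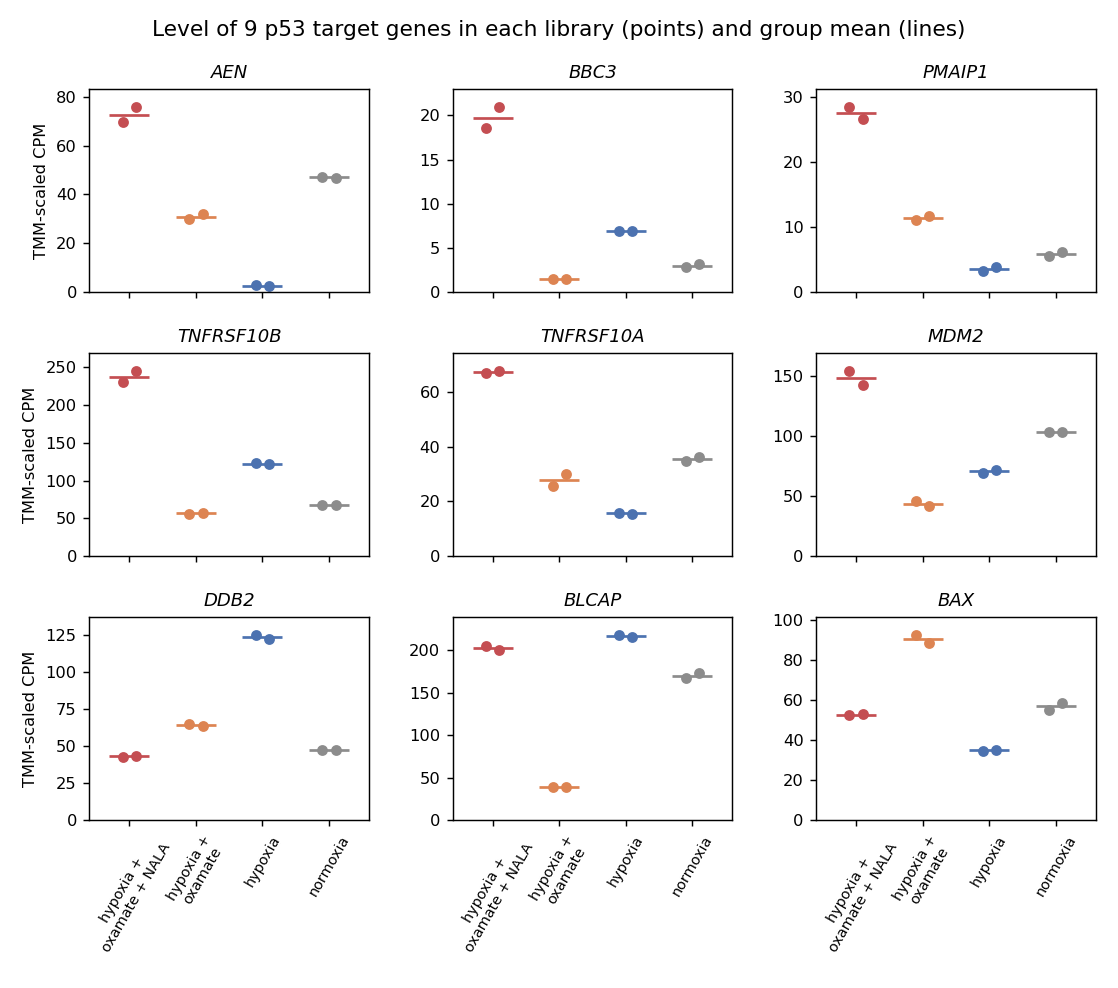
CPM of 9 p53 target genes (vertical axes from 0) in each library, with 2 points and a line at the mean for each of the 4 groups. AEN is near 0 in hypoxia only, and BBC3, PMAIP1, MDM2 and both TRAIL receptor genes are highest with oxamate and lactate.

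Oxamate in hypoxia against hypoxia asked what adding oxamate, an inhibitor of lactate dehydrogenase, changed. The activity of the enzyme is not part of these data. Of the 24 tested members, 7 rose with oxamate, 14 fell and 3 did not pass. At least 2-fold, 4 rose and 6 fell. Over all tested genes 80.5% passed, 35.7% as higher and 44.8% as lower. At 2-fold or more 41.8% passed, 14.3% as higher and 27.5% as lower, and the 10 of 24 members again lay near that background. The median was -0.49 for members and -0.20 for all tested genes. This comparison shares the hypoxia libraries with the preceding one.

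AEN was at 29.8 and 31.9 CPM with oxamate and 2.85 and 2.43 CPM in hypoxia (3.54 ± 0.10, adjusted p = 1.03e-18), the largest rise among members. PMAIP1 rose to 11.0 and 11.6 CPM with oxamate, against 3.26 and 3.84 CPM in hypoxia (1.67 ± 0.12, adjusted p = 1.75e-11), and BAX to 92.3 and 88.4 CPM, against 34.6 and 35.1 CPM (1.37 ± 0.049). BAX reached its highest level of the 4 groups here. PLK3 rose to 6.81 and 7.77 CPM with oxamate, against 2.48 and 2.18 CPM in hypoxia (1.64 ± 0.16, adjusted p = 2.57e-09). TNFRSF10A (0.83 ± 0.076), PPM1D (0.50 ± 0.10) and TRIAP1 (0.43 ± 0.085) rose less.

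BLCAP had the largest fall among members with counts in both groups, at 38.4 and 38.4 CPM with oxamate and 218 and 216 CPM in hypoxia (-2.50 ± 0.041, adjusted p = 9.26e-23). BBC3 fell to 1.51 and 1.46 CPM with oxamate, against 6.89 and 6.90 CPM in hypoxia (-2.21 ± 0.16, adjusted p = 2.39e-11), so the BH3-only genes again differed in direction. TP53INP1 had 0 and 0 counts with oxamate and 12 and 12 in hypoxia. Against a floor of 3 counts over the oxamate group, with the hypoxia counts taken as exact, it was at least 6.99-fold lower. By edgeR it passed as lower (adjusted p = 0.000523). POLH fell to 3.64 and 3.72 CPM with oxamate, against 12.4 and 12.5 CPM in hypoxia (-1.76 ± 0.12).

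PLK2 (-1.64 ± 0.035), TNFRSF10B (-1.12 ± 0.043), DDB2 (-0.95 ± 0.042), PHLDA3 (-0.91 ± 0.069, adjusted p = 4.42e-11), FAS (-0.88 ± 0.14, adjusted p = 6.27e-06), MDM2 (-0.70 ± 0.053, adjusted p = 4.86e-11), CCNG1 (-0.68 ± 0.041), FDXR (-0.58 ± 0.074) and PIDD1 (-0.41 ± 0.060) fell with oxamate. MDM2 was at 45.8 and 41.4 CPM with oxamate and 69.5 and 72.2 CPM in hypoxia. FAS was at 4.49 and 3.32 CPM with oxamate and 7.09 and 7.36 CPM in hypoxia. PHLDA3 was at 21.3 and 22.9 CPM with oxamate and 43.4 and 39.3 CPM in hypoxia. XPC fell (-0.23 ± 0.065), a call lost without oxamate replicate 1 (-0.12) or 2 (-0.13), with DESeq2 (-0.15) and in a fit of the compared groups alone (-0.13). ZMAT3 (0.10 ± 0.098), RRM2B (0.09 ± 0.080) and TP53I3 (-0.30 ± 0.15) did not pass. RRM2B passed in the fit of the compared groups alone (0.19), and TP53I3 passed with upper quartile scaling (-0.37) and without hypoxia replicate 2 (-0.48).

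Set directly against normoxia, hypoxia with oxamate had 5 members higher and 17 lower, with 2 not passing, while 72% of all tested genes passed, 31.9% as higher and 40.1% as lower. At least 2-fold, 0 members were higher and 7 lower by edgeR, against 27.5% of all tested genes, 7.32% as higher and 20.2% as lower. The largest rise of a member was 0.95, so none was past 2-fold at any p. The medians were -0.32 for members and -0.14 for all tested genes. Without oxamate replicate 1 the count of lower members was 11, and without oxamate replicate 1 or 2 it was 4 at 2-fold or more, with 1 member at least 2-fold higher. That member was PMAIP1, which was also past 2-fold with DESeq2 (1.04).

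PMAIP1 was at 11.0 and 11.6 CPM with oxamate and 5.54 and 6.10 CPM in normoxia (0.95 ± 0.11, adjusted p = 6.74e-08). BAX (0.67 ± 0.046, adjusted p = 1.20e-11), PLK3 (0.51 ± 0.14, adjusted p = 0.0026), DDB2 (0.44 ± 0.046) and PIDD1 (0.29 ± 0.063) were the other members that were higher. BLCAP had 38.4 and 38.4 CPM with oxamate and 168 and 173 CPM in normoxia (-2.15 ± 0.041, adjusted p = 4.12e-21). POLH (-1.83 ± 0.12, adjusted p = 2.69e-12), FAS (-1.72 ± 0.13, adjusted p = 7.42e-11), MDM2 (-1.25 ± 0.051, adjusted p = 1.41e-15), ZMAT3 (-1.06 ± 0.088) and BBC3 (-1.01 ± 0.18, adjusted p = 4.13e-05) followed. FAS stood at 4.49 and 3.32 CPM with oxamate and 12.7 and 13.1 CPM in normoxia, its lowest and highest groups. AEN, at 29.8 and 31.9 CPM with oxamate and 47.3 and 46.7 CPM in normoxia, stayed lower (-0.61 ± 0.061). PLK2 (-0.91 ± 0.036), PHLDA3 (-0.59 ± 0.070, adjusted p = 9.56e-08), XPC (-0.46 ± 0.064) and TNFRSF10B (-0.26 ± 0.045) were also lower. TP53INP1 had 0 and 0 counts with oxamate and 2 and 10 in normoxia. Against the same floor, with the normoxia counts taken as exact, it was at least 3.46-fold lower. By edgeR it passed as lower (adjusted p = 0.00725), a call lost without normoxia replicate 2, oxamate replicate 1 or oxamate replicate 2. TNFRSF10A (-0.35 ± 0.067), PPM1D (-0.30 ± 0.093), RRM2B (-0.29 ± 0.077), CCNG1 (-0.20 ± 0.042) and FDXR (-0.19 ± 0.076) were lower by small amounts, and each lost its call without oxamate replicate 1 (-0.14, -0.22, -0.22, -0.09 and -0.18). PPM1D, RRM2B and CCNG1 also lost it without oxamate replicate 2 (-0.19, -0.18 and -0.12) and with DESeq2 (-0.22, -0.21 and -0.12), and PPM1D without normoxia replicate 2 (-0.26). The call of FDXR was lost in 9 of 15 alternatives, among them both other scalings and DESeq2, and without oxamate replicate 2 its value was -0.0033. TP53I3 and TRIAP1 did not pass (0.26 ± 0.16 and 0.07 ± 0.083), although both passed without oxamate replicate 1 (0.46 and 0.27).

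**Figure D3:**
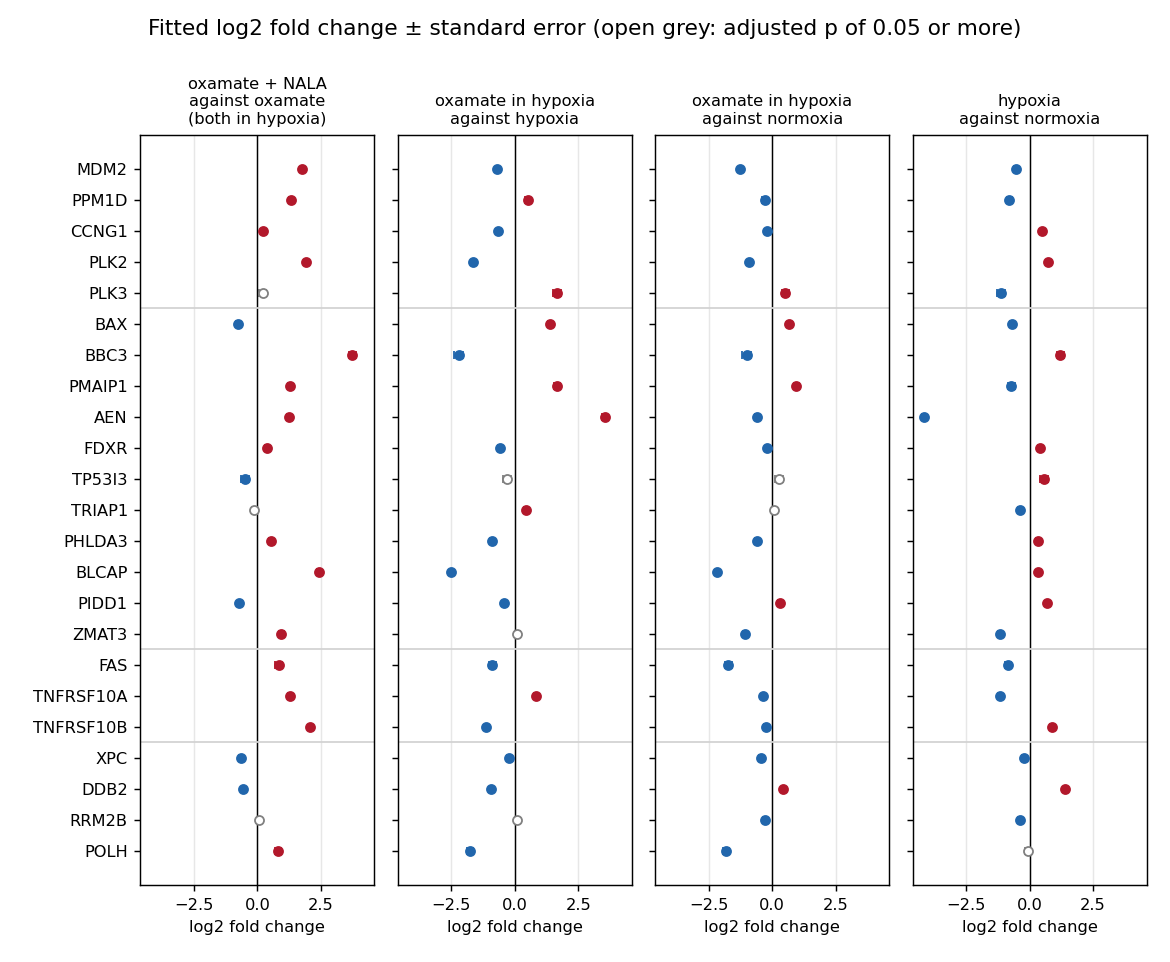
Fitted log2 fold change ± standard error (horizontal axis) of 23 tested p53 target genes (rows, by role) in the 4 comparisons. Red points rose, blue points fell and open points did not pass. In the panel of oxamate with NALA against oxamate, BBC3 is farthest to the right at 3.73.

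Adding lactate to oxamate in hypoxia asked what lactate changed in the presence of oxamate. Here most members rose: 15 of the 24 tested members were higher with lactate, 5 were lower and 4 did not pass. At least 2-fold, 9 rose and 0 fell by edgeR, and DESeq2 also called 0 lower. The largest fall of a member was -0.78. Over all tested genes 64.9% passed, 33.2% as higher and 31.7% as lower, and 19.2% passed at 2-fold or more, 14.7% as higher and 4.49% as lower. With upper quartile scaling that split was 4150 higher and 6340 lower, against 5160 and 4927 with TMM, and the median of all tested genes moved to -0.21, against -0.02. The members still counted 14 higher and 6 lower there, with 9 at least 2-fold higher. The median of the 24 tested members was 0.66, and 0.47 with upper quartile scaling. Leaving out TP53INP1, which had 0 counts in all 4 libraries, the members' median was 0.81 over 23 genes. The median of all tested genes left no gene out, so it is best set beside the value over 24.

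BBC3 had the largest rise, with 18.6 and 20.9 CPM with oxamate and lactate and 1.51 and 1.46 CPM with oxamate (3.73 ± 0.15, adjusted p = 8.24e-16). Its counts were 366 and 513 with lactate and 39 and 36 without, and its lactate level was also above both hypoxia libraries at 6.89 and 6.90 CPM. PMAIP1 rose to 28.4 and 26.6 CPM with lactate, against 11.0 and 11.6 CPM with oxamate (1.28 ± 0.094, adjusted p = 5.05e-11). Here both BH3-only genes rose. BAX instead fell to 52.4 and 53.1 CPM with lactate, against 92.3 and 88.4 CPM with oxamate (-0.78 ± 0.048, adjusted p = 2.92e-12).

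All 3 tested death receptor genes rose. TNFRSF10B was at 230.2 and 245 CPM with lactate and 56.1 and 56.8 CPM with oxamate (2.07 ± 0.042, adjusted p = 1.38e-20). TNFRSF10A rose to 67.2 and 67.6 CPM with lactate, against 25.7 and 30.1 CPM with oxamate (1.27 ± 0.065). FAS rose to 6.61 and 7.29 CPM with lactate, against 4.49 and 3.32 CPM with oxamate (0.83 ± 0.15, adjusted p = 3.10e-05), which left it below its normoxia level.

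Of the feedback and cell cycle members, 4 of 5 rose. MDM2 reached 154 and 143 CPM with lactate, against 45.8 and 41.4 CPM with oxamate (1.77 ± 0.051, adjusted p = 4.81e-18), and its 2 lactate libraries were the highest of all 8. PLK2 rose to 352 and 345 CPM with lactate, against 94.5 and 90.0 CPM with oxamate (1.92 ± 0.035). PPM1D rose to 28.1 and 25.7 CPM with lactate, against 10.9 and 10.6 CPM with oxamate (1.32 ± 0.089). CCNG1 rose (0.23 ± 0.043), a call lost with upper quartile scaling (0.03) and without oxamate replicate 1 (0.11). PLK3 did not pass (0.22 ± 0.14).

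BLCAP rose to 206 and 201 CPM with lactate, against 38.4 and 38.4 CPM with oxamate (2.40 ± 0.041, adjusted p = 1.11e-21). AEN rose further, to 69.6 and 75.7 CPM with lactate, against 29.8 and 31.9 CPM with oxamate (1.24 ± 0.060). PHLDA3 was at 30.3 and 32.8 CPM with lactate and 21.3 and 22.9 CPM with oxamate (0.52 ± 0.073, adjusted p = 1.67e-06). ZMAT3 (0.94 ± 0.092), POLH (0.81 ± 0.13) and FDXR (0.38 ± 0.078) rose as well, the last with no call without oxamate replicate 2 (0.19).

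The 4 other members that fell were PIDD1, XPC, DDB2 and TP53I3. PIDD1 was at 20.5 and 20.7 CPM with lactate and 34.3 and 32.9 CPM with oxamate (-0.71 ± 0.069, adjusted p = 5.88e-09). XPC fell to 15.7 and 16.7 CPM with lactate, against 25.4 and 25.6 CPM with oxamate (-0.65 ± 0.074, adjusted p = 6.59e-08), and DDB2 to 42.9 and 43.2 CPM, against 64.9 and 63.3 CPM (-0.57 ± 0.048). XPC and DDB2, the pair that finds bulky DNA damage for excision repair, thus had their lowest levels of the 4 groups with lactate. TP53I3 fell (-0.49 ± 0.17), and lost the call without oxamate replicate 2 (-0.48) or lactate replicate 2 (-0.42). RRM2B (0.07 ± 0.082) and TRIAP1 (-0.14 ± 0.086) did not pass, although TRIAP1 passed as lower with upper quartile scaling (-0.33), RLE scaling (-0.20), the stricter count filter (-0.26) and without oxamate replicate 1 (-0.34).

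**Figure D4:**
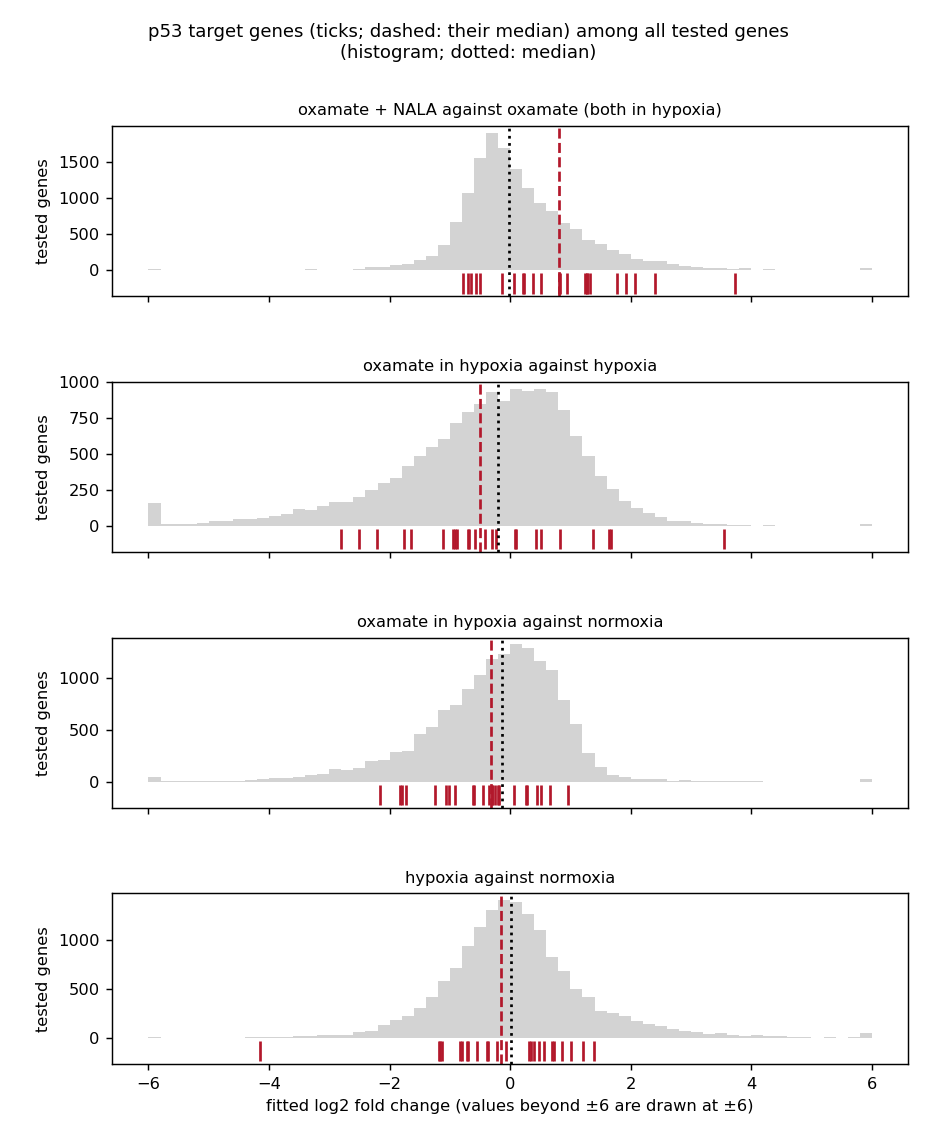
Histograms of fitted log2 fold changes of the 15554 tested genes in the 4 comparisons, with the p53 target genes as red ticks, their median dashed and the median of all tested genes dotted. TP53INP1 is drawn at its bound against oxamate and left out of the panel with NALA, where the dashed line stands at 0.81 and the dotted line at -0.02. The dotted line leaves no tested gene out.

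Several members were described above by their differences alone, and their levels follow. CCNG1 was at 80.5 and 79.1 CPM with oxamate and lactate, 67.6 and 68.9 with oxamate, 109 and 109 in hypoxia and 78.1 and 78.7 in normoxia. FDXR was at 25.7 and 28.6 CPM with oxamate and lactate, 22.3 and 19.6 with oxamate, 31.0 and 31.5 in hypoxia and 23.9 and 23.7 in normoxia. Both genes were highest in hypoxia. PIDD1 was at 44.3 and 45.0 CPM in hypoxia and 26.3 and 28.7 CPM in normoxia, both above its levels with lactate. TP53I3, low throughout, was at 4.27 and 3.91 CPM with oxamate and lactate, 5.30 and 6.19 with oxamate, 8.04 and 6.12 in hypoxia and 4.58 and 5.03 in normoxia, and its hypoxia libraries lay apart. TRIAP1 was at 17.9 and 16.8 CPM with oxamate and lactate, 17.8 and 20.5 with oxamate, 14.1 and 14.2 in hypoxia and 18.2 and 18.2 in normoxia. RRM2B was at 18.9 and 19.2 CPM with oxamate and lactate, 18.4 and 17.8 with oxamate, 16.4 and 17.7 in hypoxia and 23.2 and 21.4 in normoxia. The groups of TRIAP1 and RRM2B differed little, as their narrow spans show. PPM1D was at 7.30 and 7.88 CPM in hypoxia and 12.8 and 13.6 CPM in normoxia, PLK3 at 9.05 and 7.95 CPM with oxamate and lactate and 5.32 and 4.93 CPM in normoxia, and XPC at 29.2 and 30.8 CPM in hypoxia and 35.0 and 35.0 CPM in normoxia. ZMAT3 stood at 20.6 and 19.0 CPM with oxamate and lactate and 10.1 and 10.5 CPM with oxamate. POLH was at 6.76 and 6.15 CPM with oxamate and lactate, and PHLDA3 at 33.1 and 33.6 CPM in normoxia. XPC, ZMAT3 and POLH, like RRM2B and FAS, had their highest mean in normoxia.

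The other 4 members were too low to test. SPATA18, a mitochondrial quality control gene, had 0 counts in all 8 libraries, which at a floor of 3 counts allows a level of up to 0.102 to 0.137 CPM of the total, depending on the library. CYFIP2, a subunit of the actin-regulating WAVE complex, had at most 2 counts in a library. TP53AIP1, encoding a mitochondrial apoptosis protein, had 1 and 3 counts in hypoxia and 0 in the other 6 libraries. TNFRSF10C, a decoy receptor for TRAIL, had 3 and 1 counts in hypoxia and 0 and 1 with oxamate.

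Strand was not stated for the counting, so reads of overlapping genes cannot be told apart. In GENCODE release 29, 14 of the 28 members share exon bases with another gene. In 9 of these 14, the overlapping gene had a level of 10% or more of the member's. PIDD1 shares 1.82% of its exon bases with RPLP2 on the opposite strand, whose level was 1720% of its own, and XPC shares 6.63% with LSM3 at 345%. The share is 8.93% for FAS with ACTA2 at 25%, 1.3% for TNFRSF10B with RHOBTB2 at 38.2% and 9.01% for TNFRSF10A with AC100861.1 at 15.6%. POLH shares 4 bases with GTPBP2, and TP53I3 shares 3.46% of its exon bases with FAM228B at 10.9%. These members are uncertain to that extent, and the part of the partners was not tested. AEN, PMAIP1, BAX, DDB2 and PPM1D share no exon bases with another gene there.

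The genes that act on p53 were described from a list of 26, all tested. TP63, encoding the squamous factor p63, was at 175 and 173 CPM with oxamate and lactate, 80.9 and 78.9 CPM with oxamate, 245 and 247 CPM in hypoxia and 128 and 122 CPM in normoxia. TP63 rose in hypoxia (0.98 ± 0.035, adjusted p = 1.17e-16), fell with oxamate (-1.62 ± 0.037, adjusted p = 2.48e-20), rose with lactate added (1.12 ± 0.038, adjusted p = 7.35e-17) and was lower with oxamate against normoxia (-0.64 ± 0.038, adjusted p = 8.79e-13).

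Of the 26 regulators, 13 rose and 10 fell in hypoxia, where 36.7% of all tested genes rose and 36.8% fell. With oxamate 13 rose and 12 fell, against 35.7% and 44.8% of all tested genes. With oxamate against normoxia 11 were higher and 10 lower, against 31.9% and 40.1%, and with lactate added 13 rose and 6 fell, against 33.2% and 31.7%. MDM4, the MDM2 relative that masks p53, rose in hypoxia (0.31 ± 0.081, adjusted p = 0.00171) and with lactate (0.75 ± 0.081, adjusted p = 3.37e-08). It was lower with oxamate against hypoxia (-0.21 ± 0.082, adjusted p = 0.0225), a call lost in 7 of 15 alternatives. With oxamate against normoxia it did not pass (0.10 ± 0.084, adjusted p = 0.306). The genes with the smallest adjusted p that rose in hypoxia were TP63 and the ubiquitin ligase gene HUWE1 (0.80 ± 0.031), and those that fell were the damage kinase gene ATR (-1.37 ± 0.066) and the p53-phosphorylating kinase gene TP53RK (-1.58 ± 0.082). With oxamate the nucleolar gene NPM1 (1.20 ± 0.030) and RPL11 (0.79 ± 0.030), whose protein can bind MDM2, rose and TP63 and HUWE1 (-0.86 ± 0.031) fell. Against normoxia RPL11 (1.38 ± 0.031) and RPL5 (1.04 ± 0.032) were higher with oxamate, and the deubiquitinase gene USP7 (-1.18 ± 0.041) and ATR (-1.30 ± 0.067) were lower. With lactate TP53BP2, encoding the p53-binding protein ASPP2 (2.15 ± 0.050), and DAXX (1.38 ± 0.039) rose, and PRKDC (-0.33 ± 0.029) and RPL11 (-0.30 ± 0.030) fell.

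A list of 49 other genes that p53 is known to activate, 44 of them tested, was counted in the same way. In hypoxia 17 rose and 16 fell, with a median of 0.06, against 36.7% and 36.8% of all tested genes and a median of 0.02. With oxamate 17 rose and 25 fell, with a median of -0.37, against 35.7% and 44.8% of all tested genes and a median of -0.20. With oxamate against normoxia 14 were higher and 23 lower, with a median of -0.42, against 31.9% and 40.1% of all tested genes and a median of -0.14. With lactate added 26 rose and 12 fell, with a median of 0.38, against 33.2% and 31.7% of all tested genes and a median of -0.02. CDKN1A, encoding the cell cycle inhibitor p21, was at 14.1 and 16.2 CPM with oxamate and lactate, 6.50 and 5.62 CPM with oxamate, 38.0 and 37.1 CPM in hypoxia and 8.30 and 9.10 CPM in normoxia. GADD45A, a growth arrest gene, was at 604 and 627 CPM with oxamate and lactate, 712 and 689 CPM with oxamate, 26.9 and 27.2 CPM in hypoxia and 22.0 and 20.7 CPM in normoxia. CDKN1A rose in hypoxia (2.10 ± 0.087, adjusted p = 1.52e-15), fell with oxamate (-2.63 ± 0.095, adjusted p = 7.71e-17) and rose with lactate (1.33 ± 0.11, adjusted p = 3.27e-10), while GADD45A rose with oxamate (4.69 ± 0.041, adjusted p = 1.17e-26) and fell slightly with lactate (-0.19 ± 0.031, adjusted p = 1.66e-05). GADD45A also rose in hypoxia (0.35 ± 0.054, adjusted p = 6.38e-06). With oxamate against normoxia CDKN1A was lower (-0.52 ± 0.11, adjusted p = 0.000304) and GADD45A higher (5.04 ± 0.042, adjusted p = 2.71e-27).

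By smallest adjusted p in that list, CDKN1A and CMBL (1.13 ± 0.047) rose in hypoxia, while EPHA2 (-1.92 ± 0.054) and TIGAR (-3.16 ± 0.14), a brake on glycolysis, fell. With oxamate GADD45A and PRKAB1 (2.41 ± 0.066) rose, and SFN, encoding 14-3-3σ (-2.03 ± 0.038), and the apoptosome gene APAF1 (-3.82 ± 0.098) fell. Against normoxia GADD45A and PERP (0.85 ± 0.034) were higher with oxamate, and SFN (-2.03 ± 0.038) and IER5 (-2.82 ± 0.086) were lower. With lactate TNFRSF10D, another TRAIL decoy receptor (2.66 ± 0.072), and IER5 (3.09 ± 0.086) rose, and TM7SF3 (-0.85 ± 0.041) and ASCC3 (-0.52 ± 0.043) fell.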

How the data were processed

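The authors deposited 1 table of counts per gene for the 8 libraries, whole numbers that were not normalized. The submitters' processing notes name FastQC 0.11.9, STAR 2.7.8a and RSEM 1.3.3 without roles, with hg38 and GRCh38 as builds, and the counts may be rounded RSEM estimates. Neither strandedness nor the annotation release is stated.

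The analysis used edgeR 4.0.16 in R 4.3.3. Low genes were removed with filterByExpr (minimum count 10), libraries were scaled by TMM, and 1 robust quasi-likelihood model with 4 group means was fitted to all 8 libraries, with 4 residual degrees of freedom. Each of 4 comparisons used the quasi-likelihood F test, two-sided, with Benjamini-Hochberg adjustment across the 15554 genes. Standard errors were derived from the F statistic. The method was tested on simulated counts with the same dispersion for all genes and a small set of genes changed in hypoxia alone. Far more genes passed in the real comparisons, so the simulation does not show how the method behaves there. Positions and exon overlaps are from GENCODE release 29 (GRCh38) and promoters from RefSeq.

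The members, lists and comparisons were chosen with earlier results of these data known. Test values are given for the 3 largest increases and decreases per comparison, MDM2, BBC3, PMAIP1, FAS, PHLDA3, TP63, MDM4, CDKN1A and GADD45A, with fold changes alone for the 2 best-ranked genes by adjusted p, per direction, of each other list. The remaining members are given for completeness, and 1 gene of this rule is not reported here. Alternatives were RLE and upper quartile scaling, no count filter, at least 50 counts in 2 libraries, DESeq2 1.42.0, a replicate block, fitting just the 2 compared groups, and omitting each library in turn. A floor is 3 counts. Floors cover only the counting error of a group or library without counts. The standard errors also include the fitted spread between libraries.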

Additional observations from a re-analysis of the deposited data

How the results depend on the processing

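The 16 counts of p53 target genes that were higher or lower in a comparison, with and without the 2-fold limit, and each printed fold change were recomputed under 15 alternatives. Counts by role, by highest or lowest group and of the other lists were not. Of 142 gene values, 124 kept their side of the threshold in every alternative. Of the values that passed as reported, 0 changed direction. Changes of sign between values that did not pass were not counted. Of 240 recomputed counts, 228 were within 1.5 times the reported one. The others concern oxamate in hypoxia against normoxia. Leaving out each library gave 11 to 17 lower members, 0 to 1 members at least 2-fold higher and 4 to 7 at least 2-fold lower. With RLE scaling, DESeq2, at least 50 counts in 2 libraries and the 2 compared groups alone, 1 member was at least 2-fold higher, against 0. With at least 50 counts in 2 libraries and the 2 compared groups alone, 4 members were at least 2-fold lower, against 7. The cause was not tested. TP53INP1 was too low for a value with at least 50 counts in 2 libraries, and against normoxia also with the 2 compared groups alone.

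The labels number the replicates without saying that a number marks a shared culture or day, and deviations of same-numbered libraries correlated between -0.05 and 0.01. With the replicate block, 15 members rose and 5 fell with lactate added, 10 rose and 12 fell in hypoxia, and 7 rose and 14 fell with oxamate, the same counts as without it. The counts of the 2 libraries in each group differ by more than sampling noise. Their chi-square per degree of freedom was largest with oxamate and lactate, at 4.83, against 2.03 with oxamate, 2.11 in hypoxia and 1.85 in normoxia. With 2 libraries per group the spread is poorly known, and members with few counts, such as TP53INP1, are limited by depth.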
